A study of Mus musculus with 19 samples.

Results

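Lypla2 and 5 related genes, Lypla1, Lyplal1, Ppt1, Ppt2 and Abhd17a, encode thioesterases that act on palmitate and similar fatty acids, and are described here across single mouse embryos. The 6 genes were taken by their symbols from the 53379 gene rows of the count table, and all 6 had enough reads to be among the 18410 genes tested. Lypla2 was chosen by its low counts in morulae labelled Gabpb1 KO against the non-KO morulae of that cross. Every gene's value that uses the morulae of the Gabpb1 cross is therefore given as a description with no test. Only the number of genes called in the whole Gabpb1 KO contrast comes from a test, and nothing is read from it for the 6 genes. The other 5 genes were chosen as relatives of Lypla2.

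The study sequenced polyA RNA from 19 embryos, 1 embryo per library, at 96 hours after in vitro fertilization. Sperm and oocytes came from Alyref+/- mice, from Gabpb1+/- mice or from wild-type (WT) mice, all labelled B6D2F1, and embryos grew in KSOM medium at 37°C under 5% CO2. From Alyref+/- parents came 5 morulae, of which 2 are labelled KO and 3 non-KO, and 3 blastocysts, all non-KO. From Gabpb1+/- parents came 5 morulae, with 3 labelled KO and 2 non-KO, as well as 3 blastocysts that are non-KO. The WT parents gave 3 blastocysts. A non-KO embryo was either WT or heterozygous at the crossed gene, and the labels do not separate these genotypes. No KO blastocyst and no WT morula is among the samples analysed here. Morulae and blastocysts were taken at the same hour, so the comparison between them is of the stage an embryo had reached, not of its age.

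S-palmitoylation attaches palmitate to cysteines of proteins through a thioester bond and anchors them to membranes. It is reversible: ZDHHC acyltransferases add the fatty acid, and thioesterases take it off again, which lets small GTPases, G protein subunits and scaffold proteins cycle between membranes. LYPLA1 and LYPLA2 (acyl-protein thioesterases APT1 and APT2) and the ABHD17 proteins work on the cytosolic side, whereas PPT1 and PPT2 are lysosomal enzymes. Gabpb1 encodes the beta subunit of the transcription factor GABP, whose alpha subunit, Gabpa, is an ETS protein that binds the letters CCGGAAG. Alyref encodes an mRNA export adaptor.

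The start region of Lypla2 is printed here with the letters that GABP is known to bind marked. Whether these letters bear on the level of Lypla2 in any group was not tested. RefSeq promoter windows (GRCm38.p6, 250 bases before to 50 bases after the start) were on hand for 5 of the 6 members, and CCGGAAG was searched on both strands, together with the NRF1 core GCATGCG for comparison. The stretch printed for Lypla2 is chr4:135972627-135972844 on the minus strand, the 218 bases before the annotated gene. Capitals mark CTTCCGG, which is CCGGAAG read from the opposite strand. The single sites of Abhd17a (chr10:80590324-80590352, minus strand) and Lyplal1 (chr1:186117326-186117354, minus strand) are printed below it, with the NRF1 letters of Lyplal1 in capitals.
Lypla2: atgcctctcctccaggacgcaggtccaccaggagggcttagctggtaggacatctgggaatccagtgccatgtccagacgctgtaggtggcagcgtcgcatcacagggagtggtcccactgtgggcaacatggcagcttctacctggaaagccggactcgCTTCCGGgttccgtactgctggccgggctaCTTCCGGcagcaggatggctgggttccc
Abhd17a: gcctcgcatcaCTTCCGGgggcggtgtta
Lyplal1: ccaggcacggCGCATGCGcacacccatgc

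The Lypla2 window held 2 matches to CCGGAAG, whose first bases lie at -90 and -60 from the RefSeq start (chr4:135972678-135972684 and chr4:135972648-135972654). That start lies inside the annotated gene, so these positions are not counted from the end of the printed stretch. Of all 32851 promoter windows of the same length, 8.86% held at least 1 such match and 1.48% held at least 2. Abhd17a held 1 match, beginning at position 1 of the transcript. The window of Ppt1 and the 5 windows of Ppt2 held no match to either motif, which says only that these letters are not in those windows. Lyplal1 held an overlapping pair of NRF1 matches, 1 on each strand, at -34 and -33, and at least 2 NRF1 matches were found in 1.95% of all windows. A match is a description of letters, and no binding was measured.

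Lypla2 encodes APT2, a cytosolic thioesterase that removes palmitate from membrane-anchored proteins. The gene lies at chr4:135968224-135972626 on the minus strand (GRCm38, GENCODE; ENSMUSG00000028670.14), and no other annotated gene overlaps it. In the 3 morulae labelled Gabpb1 KO its level was 1.03, 0.926 and 1.06 CPM (TMM-scaled CPM), from 12, 10 and 15 read counts. In the 2 non-KO morulae of the same cross it was 30.4 and 42.9 CPM, from 428 and 564 counts. The 3 KO libraries lay close together, and none came near a non-KO library.

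The remaining 14 embryos all held more Lypla2 than the Gabpb1 KO morulae. The level was 31.7, 15.0 and 27.6 CPM in the non-KO morulae of the Alyref cross, and 13.1 and 19.7 CPM in the morulae labelled Alyref KO. In blastocysts it was 36.9, 27.3 and 32.3 CPM in the Alyref cross, 23.6, 34.6 and 38.7 CPM in the Gabpb1 cross and 27.3, 40.4 and 46.3 CPM in the WT embryos. The lowest of these 14 values, in an Alyref KO morula, was 13.1 CPM. By mean level the groups ran from WT blastocysts (38.0 ± 9.72, SD, n = 3) through Gabpb1 non-KO morulae (36.7 ± 8.80, n = 2), Gabpb1 blastocysts (32.3 ± 7.77, n = 3), Alyref blastocysts (32.2 ± 4.82, n = 3), Alyref non-KO morulae (24.8 ± 8.68, n = 3) and Alyref KO morulae (16.4 ± 4.72, n = 2) to Gabpb1 KO morulae (1.01 ± 0.0726, n = 3). Each neighbouring pair in that order had overlapping values, except the last.

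**Figure D1:**
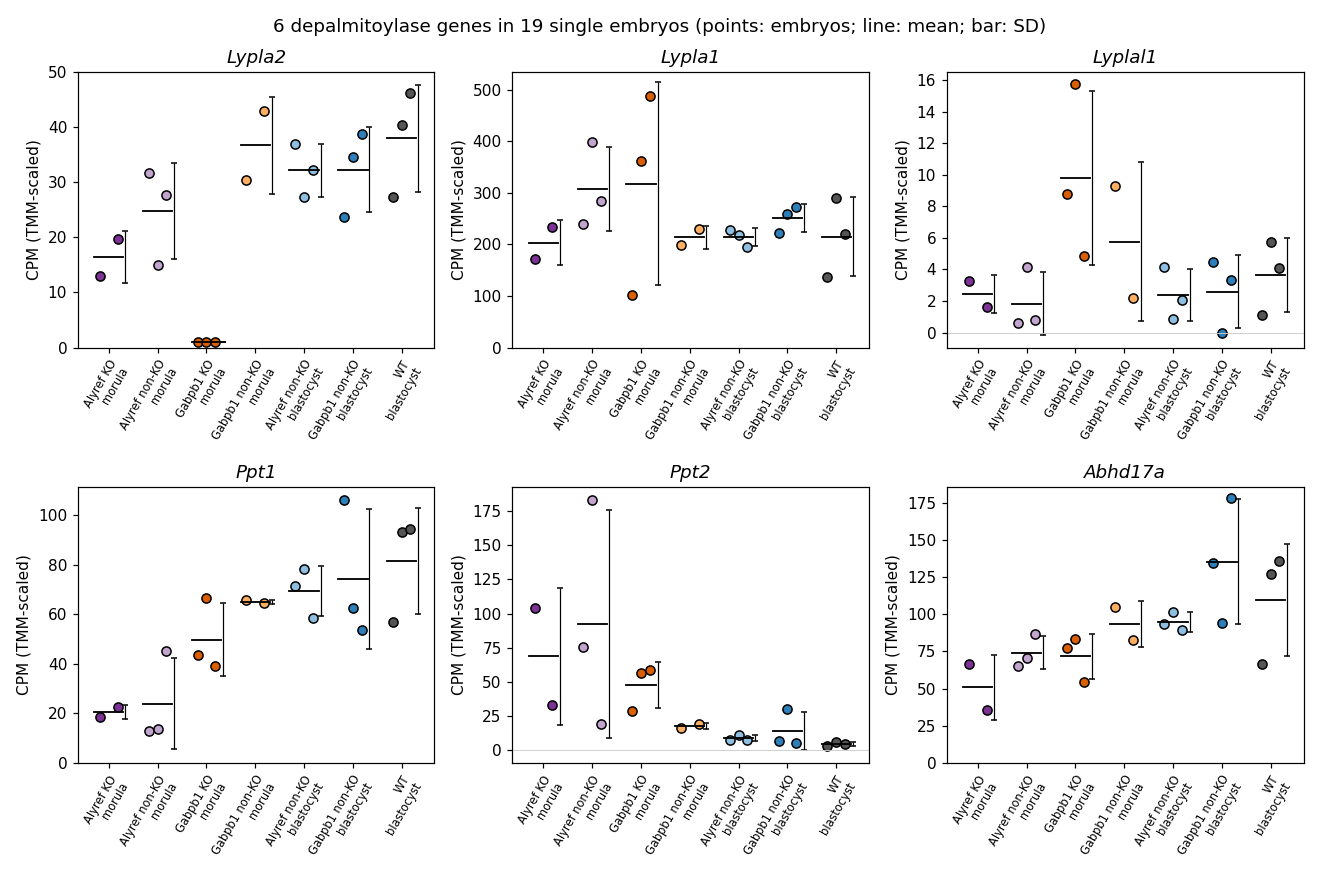
Level of each of the 6 genes (CPM, linear axis with its own scale for each gene) in 19 single embryos, by group; points are embryos, horizontal lines group means and vertical bars SD. The 3 Gabpb1 KO morulae lie between 0.926 and 1.06 CPM for Lypla2, with every other embryo at 13.1 CPM or more, while the groups of Lypla1 and Lyplal1 spread widely.

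The log2 fold change of Lypla2 between KO and non-KO morulae of the Gabpb1 cross was -5.17 (SE 0.39), and 61 of the 18410 tested genes had a lower value. Against the non-KO morulae of the Alyref cross, the same KO morulae gave -4.61 (SE 0.37). These comparisons share the KO embryos. Every KO value was below every value of the Alyref morulae, as in 8.46% of tested genes. Non-KO morulae of the crosses differed by 0.56 (SE 0.33), with overlapping values. In the Gabpb1 contrast edgeR's quasi-likelihood fit called 303 genes, 1.65% of those tested, and in 16.4% of tested genes every KO value lay below every non-KO value, as for Lypla2. Since that contrast chose the gene, nothing is read from these shares.

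KO embryos were genotyped by the submitters from missing reads over the deleted stretch in these libraries. The whole-gene count of Gabpb1 was 78.2, 259 and 151 CPM in the KO morulae and 93.8 and 83.3 CPM in the non-KO morulae, so it was not lower in the embryos labelled KO. Such a count includes the parts of the gene outside the deletion and does not check the label. Gabpa, the GABP alpha subunit, was at 241, 290 and 496 CPM in the KO morulae and 180 and 129 CPM in the non-KO morulae. The Alyref count was 47.8 and 58.5 CPM in the morulae labelled Alyref KO and 161 to 291 CPM in their non-KO counterparts (log2 -2.05, SE 0.30). Since missing reads of the gene in these libraries set the label, this difference does not check the label. It is given as a description with no test.

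Libraries held 7.49 M to 31.5 M gene counts, and ERCC spike-ins were added after lysis. The log2 ratio of gene to spike-in counts ran from 5.66 to 7.63 over the embryos, and both extremes were Gabpb1 KO morulae. Scaling by spike-ins moved the median gene by -0.46 in the Gabpb1 KO contrast, by -0.30 between blastocysts and morulae of the Alyref cross, and by -0.88 between blastocysts and morulae of the Gabpb1 cross. In a whole embryo, fewer cells that express a gene and less RNA per cell cannot be told apart. The labels do not say that embryos of a group came from separate litters, so the p-values measure the spread between these embryos only.

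Cell type markers differed between the Gabpb1 KO morulae and their non-KO counterparts. The 12 trophectoderm markers summed to 428 to 3265 CPM in the Gabpb1 KO morulae and 3351 to 5344 CPM in the non-KO morulae, and 10 of the 12 were lower in KO (median log2 -1.48). All 12 were detected in every embryo of both groups. Of 10 inner cell mass and epiblast markers, 8 were higher (median 0.53). With spike-in scaling these medians were -1.32 and 0.15. Of 6 primitive endoderm markers 4 were lower and 2 were higher (median -1.73, or -1.88 with spike-in scaling). The 4 lower markers and 1 higher marker, Gata6, had no overlap of values. Over all tested genes the shares without overlap were 16.4% lower and 15.8% higher. Gata6 averaged 159 CPM in KO and 93.4 CPM in non-KO morulae, and the other higher marker, Foxa2, 0.0309 and 0 CPM. The sum of the 6, most of it Gata6, was 149.9 to 208 CPM in KO and 125 to 150.1 CPM in non-KO morulae. Against the non-KO morulae of the Alyref cross the same KO morulae had medians of 0.10 for trophectoderm, with 7 of 12 higher, -0.34 for inner cell mass and epiblast, with 8 of 10 lower, and -1.34 for primitive endoderm, with 4 of 6 lower. The first pair of medians had the opposite sign there. Between the non-KO morulae themselves, Gabpb1 cross against Alyref cross, the 3 medians were 1.30, -0.97 and 0.39. The part of these markers in the Lypla2 difference was not tested. Morulae of the Alyref cross had trophectoderm sums of 796 to 2533 CPM, within the range of the Gabpb1 KO morulae, and held 13.1 to 31.7 CPM of Lypla2. Blastocysts had sums of 5606 to 9028 CPM. Markers of cumulus cells summed to at most 0.896 CPM and those of sperm to at most 2.15 CPM in any embryo. Oocyte and polar body markers summed to 34.8 to 134 CPM in the Gabpb1 KO morulae and 38.5 to 62.7 CPM in their non-KO counterparts.

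**Figure D2:**
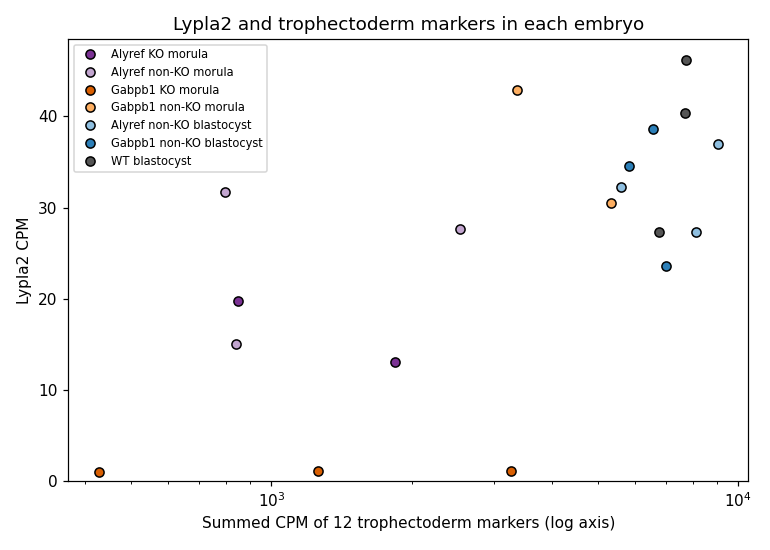
Lypla2 level (CPM, linear axis) against the summed CPM of 12 trophectoderm markers (log axis) in 19 embryos; each point is 1 embryo, coloured by group. The 3 Gabpb1 KO morulae lie near 1 CPM of Lypla2 at marker sums from 428 to 3265. All 5 morulae of the Alyref cross have sums within that span and 13.1 to 31.7 CPM of Lypla2. Embryos with similar sums can differ in single markers, and the part of the markers in the Lypla2 difference was not tested.

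Lypla2 did not differ past the threshold in any comparison that left out the Gabpb1 morulae. The tests are two-sided, from edgeR's quasi-likelihood fit over all 19 embryos, with Benjamini-Hochberg adjustment over 18410 genes and a threshold of 0.05. Between Alyref KO and non-KO morulae the log2 difference was -0.59 (SE 0.34, adjusted p = 0.528), with a 95% interval of -1.34 to 0.15 on 12 residual degrees of freedom. Between blastocysts and morulae of the Alyref cross it was 0.38 (SE 0.30, adjusted p = 0.408, interval -0.28 to 1.03), and with spike-in scaling it was -0.06. Between blastocysts of the Alyref cross and WT blastocysts it was -0.24 (SE 0.30, interval -0.89 to 0.41), and for the Gabpb1 cross it was -0.23 (SE 0.30, interval -0.88 to 0.42). The crosses' own blastocysts were 0.005 apart (SE 0.30, interval -0.65 to 0.66).

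Lypla1 encodes APT1, the closest relative of APT2. The gene spans chr1:4807788-4848410 on the plus strand (ENSMUSG00000025903.14) and overlaps Gm37988, an annotated gene on the same strand that held 324 to 2079 counts, so reads may be split between them. Its level was 103, 362 and 488 CPM in the Gabpb1 KO morulae and 198 and 229 CPM in the non-KO morulae. The KO values fell on both sides of the non-KO values, and the log2 difference was 0.57 (SE 0.45), or -0.25 with spike-in scaling. In the Alyref cross the KO morulae had 172 and 235 CPM and the non-KO morulae 240, 399 and 283 CPM. Every KO value was below every non-KO value there, as in 12.3% of tested genes, but the difference of -0.59 (SE 0.45) did not pass the test (edgeR adjusted p = 0.659). Blastocysts held 229, 219 and 194 CPM in the Alyref cross, 222, 260 and 273 CPM in the Gabpb1 cross and 136, 290 and 220 CPM in WT embryos. The blastocysts of the Alyref cross all lay below its non-KO morulae, as in 19.2% of tested genes. The log2 difference of -0.52 (SE 0.40) did not pass (edgeR adjusted p = 0.389).

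The balance of the closest pair of relatives was different in the Gabpb1 KO morulae. Per length, as FPKM computed from the counts, Lypla1 exceeded Lypla2 in every embryo. The ratio of Lypla1 to Lypla2 averaged 91.0 in the Gabpb1 KO morulae, from 28.7 to 132. It averaged 4.25 in the Alyref non-KO morulae (2.18 to 7.64), 3.60 in the Alyref KO morulae and 1.70 in the Gabpb1 non-KO morulae. In the blastocyst groups it averaged 1.94 in the Alyref cross, 2.30 in the Gabpb1 cross and 1.62 in WT embryos. Much of this ratio is the Lypla2 value that chose the gene, and it is given as a description.

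Abhd17a encodes a membrane-bound depalmitoylase known for its action on N-Ras, and lies at chr10:80583654-80590341 on the minus strand (ENSMUSG00000003346.14). It was at 77.5, 83.4 and 54.3 CPM in the Gabpb1 KO morulae and 105 and 82.7 CPM in the non-KO morulae, a log2 difference of -0.39 (SE 0.33) with overlapping values. In the Alyref cross it was at 66.3 and 35.3 CPM in KO and 65.2, 70.7 and 86.7 CPM in non-KO morulae (-0.55, SE 0.34, edgeR adjusted p = 0.568). Blastocysts held 93.3, 102 and 89.3 CPM in the Alyref cross, 134, 94.3 and 178 CPM in the Gabpb1 cross and 66.7, 127 and 136 CPM in WT embryos. The blastocysts of the Alyref cross all lay above its non-KO morulae, as in 19.6% of tested genes. The difference of 0.35 (SE 0.30) did not pass (edgeR adjusted p = 0.441). Per length it had the largest mean share of the summed FPKM of the 6 genes in every group, from 31.2% in Alyref KO morulae to 52.1% in blastocysts of the Gabpb1 cross. Lypla1 was close to it in the Alyref KO morulae, at 29.3%. The order did not hold in every embryo, since the third Gabpb1 KO morula held 68.3 FPKM of Lypla1 and 35.1 FPKM of Abhd17a. The share of Lypla2 was 0.400% in the Gabpb1 KO morulae and between 8.30% and 13.2% in the other groups.

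Lyplal1, an APT relative by sequence whose activity on proteins is less clear, had the lowest mean level per length of the 6 over the 19 embryos, 2.57 FPKM (chr1:186087731-186117310, minus strand, ENSMUSG00000039246.8). It was not the lowest in every group, since Lypla2 was lower in the Gabpb1 KO morulae (0.491 against 6.20 FPKM) and Ppt2 in WT blastocysts (1.58 against 2.32 FPKM). It held 8.78, 15.7 and 4.82 CPM in the Gabpb1 KO morulae and 9.32 and 2.21 CPM in the non-KO morulae (log2 0.76, SE 1.14). The non-KO morulae of the Alyref cross had 0.597, 4.13 and 0.777 CPM, and every Gabpb1 KO morula was above them, as in 7.19% of tested genes. The Alyref KO morulae had 3.30 and 1.60 CPM, and blastocysts had 0.869 to 4.16 CPM in the Alyref cross, 0 to 4.45 CPM in the Gabpb1 cross and 1.14 to 5.76 CPM in WT embryos. In 1 blastocyst of the Gabpb1 cross no read was counted, which allows up to 0.355 CPM (3 counts, for counting error only). The groups overlapped in the other comparisons, and at these 0 to 170 counts per embryo the standard errors were above 1 log2 unit in each of them.

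Ppt1 encodes the lysosomal palmitoyl-protein thioesterase whose loss causes an infantile neuronal ceroid lipofuscinosis. It lies at chr4:122836242-122859175 on the plus strand (ENSMUSG00000028657.14), and its annotation overlaps that of Cap1 on the opposite strand, which held 396 to 9475 counts; the counting's use of strand is not given in the sources used here. Ppt1 rose from morulae to blastocysts of the Alyref cross, from 12.9, 13.6 and 45.1 CPM to 71.4, 78.4 and 58.6 CPM. The groups did not overlap, as in 19.6% of tested genes with blastocysts higher, and the log2 difference was 1.54 (SE 0.42, edgeR adjusted p = 0.0289). Non-KO morulae of the Gabpb1 cross, at 65.7 and 64.6 CPM, were already within the range of the blastocysts, which was 53.7 to 106 CPM over all 9. The Gabpb1 KO morulae had 43.5, 66.6 and 39.2 CPM, a log2 difference of -0.39 (SE 0.46) from the non-KO morulae, with overlapping values. The Alyref KO morulae had 18.5 and 22.6 CPM, within the range of their non-KO counterparts.

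Ppt2, a lysosomal thioesterase with a preference for lipid thioesters over palmitoylated proteins, went the other way (chr17:34616662-34628510, minus strand, ENSMUSG00000015474.16). It fell from 75.2, 184 and 18.6 CPM in the non-KO morulae of the Alyref cross to 6.93, 10.8 and 7.11 CPM in the blastocysts (log2 -3.48, SE 0.80, edgeR adjusted p = 0.0153). No blastocyst reached a morula's level, as in 19.2% of tested genes with blastocysts lower. Its annotation overlaps Gm20460, a transcript on the same strand that held 10 to 1042 counts, so its count is uncertain. In the Gabpb1 cross it was at 28.2, 56.2 and 58.2 CPM in KO morulae, 15.9 and 18.9 CPM in non-KO morulae and 6.09, 30.0 and 4.96 CPM in blastocysts. Every KO morula was above both non-KO morulae, as in 15.8% of tested genes, with a log2 difference of 1.45 (SE 0.85). The Alyref KO morulae had 104 and 32.7 CPM, and WT blastocysts had the lowest mean of the 7 groups, from 2.55, 5.95 and 3.90 CPM.

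In the comparison of blastocysts with morulae of the Alyref cross 2 of the 6 genes were therefore called, where 13.0% of all tested genes were called, and Lypla2, Lypla1, Lyplal1 and Abhd17a did not pass (adjusted p 0.389 to 0.821). Both calls rested on few embryos. For Ppt1 the adjusted p was 0.0511 to 0.123 without any 1 of the 3 blastocysts or without the first or second morula, and without the third morula the difference grew to 2.39. For Ppt2 it was 0.0529 to 0.0858 without any 1 blastocyst or without the second morula, the one with 184 CPM, where the difference was -2.46. Fitting these groups alone gave 0.110 for Ppt1 and 0.0647 for Ppt2, and spike-in scaling gave 0.554 for Ppt1. Trophectoderm sums rose in the same comparison, from 796 to 2533 CPM in the morulae to 5606 to 9028 CPM in the blastocysts. Of the 12 markers 10 were higher and 2 lower (median log2 2.45, or 1.78 with spike-in scaling). edgeR called 3 of them higher and 2 lower, where 5.62% and 7.43% of all tested genes were called. The part of these markers in the Ppt1 and Ppt2 differences was not tested.

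None of the 6 genes was called between Alyref KO and non-KO morulae, where edgeR called 42 genes, 0.228% of those tested. On simulated counts for this comparison 8% of genes changed by 1 log2 unit were called, and each of the 6 fitted differences was smaller than that. Besides the values above, the differences were -0.21 for Ppt1 (SE 0.47), -0.43 for Ppt2 (SE 0.82) and 0.42 for Lyplal1 (SE 1.17). The 3 comparisons between blastocyst groups called none of the 6 genes and no gene at all by edgeR, with 541, 1123 and 646 genes at an unadjusted p under 0.05 for the Alyref cross against WT, the Gabpb1 cross against WT and the crosses against each other. DESeq2 called 14, 41 and 16 genes in them, and limma on log2(FPKM + 1) called 5, 4 and 1. The largest of the 18 differences of the 6 genes in these comparisons was that of Ppt2 between the Gabpb1 cross and WT, 1.71 (SE 0.77, edgeR adjusted p = 0.809, unadjusted 0.0414). The blastocyst of the Gabpb1 cross with 30.0 CPM set much of it, since without that embryo it was 0.42.

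**Figure D3:**
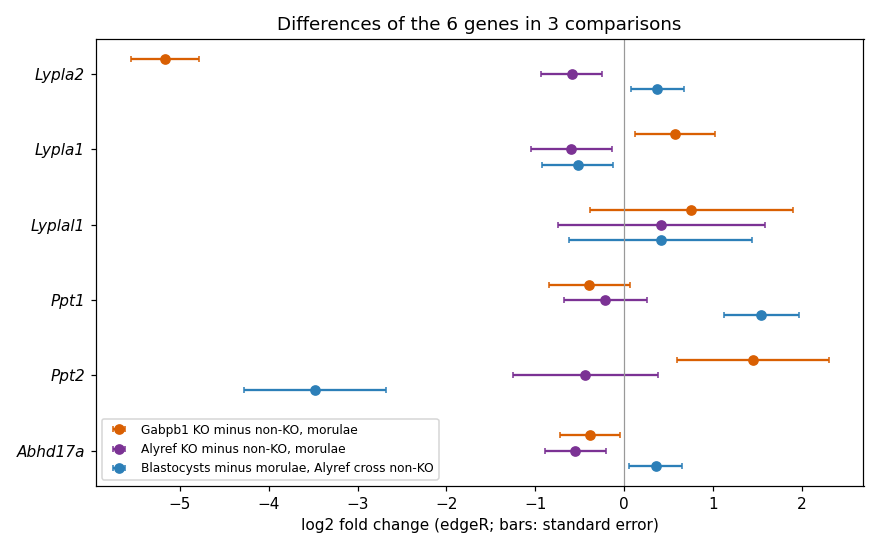
log2 fold change (edgeR) of each of the 6 genes in 3 comparisons; points are fitted differences and bars standard errors. Lypla2 lies at -5.17 between Gabpb1 KO and non-KO morulae, while its other differences and those of its relatives lie between -0.59 and 1.54, apart from Ppt2, at -3.48 between blastocysts and morulae.

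Other genes of the palmitoylation cycle were followed as lists. The 5 other deacylases (Abhd17b, Abhd17c, Abhd10, Abhd13 and Notum) had a median log2 difference of 0.13 in the Gabpb1 KO contrast, where the median of all tested genes was 0.06, and one of -0.33 with spike-in scaling. Of the 26 acyltransferases, 18 were tested, and 12 of these were lower in the Gabpb1 KO morulae, with a median of -0.32 (-0.72 with spike-in scaling). In 6 of the 18 every KO value was below every non-KO value, and in 1 every KO value was above, where these shares were 16.4% and 15.8% of all tested genes. Against the non-KO morulae of the Alyref cross, 8 of the 18 were lower and 10 higher in the Gabpb1 KO morulae (median 0.04, or -0.0068 with spike-in scaling). Zdhhc4 was at 37.5, 40.5 and 43.5 CPM in the KO morulae and 102 and 96.9 CPM in the non-KO morulae (-1.30, SE 0.32). Zdhhc13, which also carries ankyrin repeats, was at 13.8, 7.40 and 12.6 against 40.2 and 32.2 CPM (-1.68, SE 0.36), and Zdhhc12 differed by -1.22 (SE 0.53). The non-KO morulae of the Alyref cross had 13.0 to 25.7 CPM of Zdhhc13, which overlapped the values of the Gabpb1 KO morulae. Against those non-KO morulae the KO morulae differed by -0.88 (SE 0.33) for Zdhhc13. For Zdhhc12 the difference was 0.07 (SE 0.48), also with overlap. For Zdhhc4 it was -0.47 (SE 0.29), with every KO value lower, as in 8.46% of tested genes. Golga7 and Selenok, cofactors of ZDHHC enzymes, differed by 0.18 (SE 0.30) and -0.62 (SE 0.31), and Golga7b was at or below 0.365 CPM in every embryo.

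Of 23 genes for palmitoylated proteins 20 were tested, and 15 of them were lower in the Gabpb1 KO morulae (median -0.52, or -0.96 with spike-in scaling), 8 of them with no overlap of values. In 1 every KO value was above every non-KO value, and over all tested genes the shares without overlap were 16.4% lower and 15.8% higher. Flot2, a membrane scaffold protein, was at 17.0, 11.6 and 4.89 CPM in KO and 78.3 and 95.7 CPM in non-KO morulae (-2.97, SE 0.48), and its partner Flot1 at 3.96, 9.90 and 4.47 against 15.3 and 31.9 CPM (-1.95, SE 0.47). Hras, a small GTPase whose membrane cycle depends on palmitate, was at 110 to 160 CPM in KO and 122 and 132 CPM in non-KO morulae (0.11, SE 0.21). Against the non-KO morulae of the Alyref cross 8 of the 20 were lower in the Gabpb1 KO morulae and the median was 0.19. There Flot2 differed by -1.11 (SE 0.43) and Flot1 by -0.29 (SE 0.43), both with overlapping values. Hras differed by 0.65 (SE 0.19), with every KO value higher, as in 7.19% of tested genes. The direction for the list thus differed between the 2 sets of non-KO morulae, and these comparisons share the KO embryos.

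Between blastocysts and morulae of the Alyref cross edgeR called 5 of the 20 genes for palmitoylated proteins higher in blastocysts and none lower. Over all tested genes 5.62% were called higher and 7.43% lower. The 5 were Flot2 (1.77, SE 0.43), Stat3 (1.80, SE 0.52), Gnai2 (1.72, SE 0.36), Flot1 (1.39, SE 0.43) and Hras (0.67, SE 0.19), with edgeR adjusted p from 0.0108 to 0.0456. Of the 20 genes, called or not, 14 were higher and 6 lower, 9 and 2 of them with no overlap of values. Over all tested genes the shares without overlap were 19.6% higher and 19.2% lower. The list's median was 0.30, against -0.04 for all genes, and 0.05 with spike-in scaling. Spike-in scaling ended all 5 calls (adjusted p 0.376 to 0.861), as did fitting these groups alone (0.0517 to 0.128), and leaving out the second morula ended them too (0.0571 to 0.172). The calls of Hras, Stat3 and Flot1 were also lost without the first morula or without any 1 blastocyst, and that of Flot2 without the first or the second blastocyst. Of the other deacylases Notum, which removes palmitoleate from WNT proteins outside the cell, was called lower, with 12, 48 and 0 counts in the morulae and 1, 0 and 0 in the blastocysts. The groups overlapped, and without the second morula its adjusted p was 0.176; leaving out any 1 blastocyst gave 0.0775 to 0.105. None of the 18 acyltransferases was called (median 0.61, or 0.09 with spike-in scaling), and no gene of these lists was called between Alyref KO and non-KO morulae.

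The genes most like Lypla2 over the 19 embryos, by Pearson r of log2(CPM + 0.5), were Mrps21 (0.966), Lyrm2 (0.965), Gm6181 (0.956), Nubp1 (0.942) and Fam120b (0.940). Mrps21 encodes a protein of the small mitochondrial ribosomal subunit, Lyrm2 a member of the mitochondrial LYR motif family and Nubp1 a factor of cytosolic iron-sulfur cluster assembly, while Gm6181 is a processed pseudogene whose reads may come from a similar gene. Lyrm2 was at 1.55, 0.648 and 2.20 CPM in the Gabpb1 KO morulae and 28.1 and 40.6 CPM in the non-KO morulae. Fam120b had 0 counts in all 3 KO morulae, which allows up to 0.213 to 0.278 CPM by library, and 9.18 and 9.36 CPM in the non-KO morulae.

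Mrps21 was at 23.5, 24.3 and 22.8 CPM in the KO morulae and 78.5 and 113 CPM in the non-KO morulae (-2.02, SE 0.24), and Nubp1 differed by -1.75 (SE 0.19). All 5 values were smaller over the 14 embryos left when the 5 morulae of the Gabpb1 cross, KO and non-KO, were set aside, where r was 0.670 for Mrps21, 0.578 for Lyrm2, 0.704 for Gm6181, 0.628 for Nubp1 and 0.201 for Fam120b. The correlations are descriptions across embryos that share groups and scaling. For the relatives of Lypla2, r over 19 embryos was 0.38 for Abhd17a, 0.18 for Ppt1, -0.13 for Lypla1, -0.50 for Ppt2 and -0.52 for Lyplal1. Over the 14 embryos it was 0.61 for Abhd17a and 0.65 for Ppt1, within the range of the 5 genes above, 0.0096 for Lypla1, -0.70 for Ppt2 and -0.056 for Lyplal1. Those 5 genes were picked for the highest r over all 19 embryos, which include the KO morulae that chose Lypla2. The relatives could therefore only lie below them there, and nothing is read from that order. Over the 14 embryos not all of the relatives lay below the 5 genes. In the promoter windows at hand Mrps21 held 1 match to CCGGAAG, and Lyrm2, Nubp1 and Fam120b held none.

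**Figure D4:**
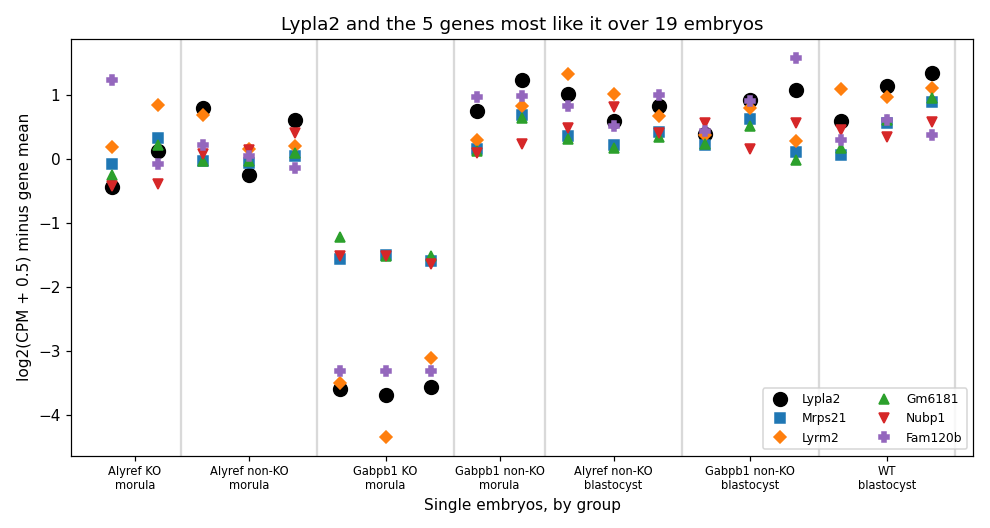
log2(CPM + 0.5) of Lypla2 and the 5 genes most like it, each minus its own mean over 19 embryos, with embryos ordered by group along the horizontal axis. All 6 genes lie lowest in the 3 Gabpb1 KO morulae, with Lypla2 at 0.926 to 1.06 CPM and Mrps21 at 22.8 to 24.3 CPM.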

How the data were processed

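The authors deposited 1 table of read counts per gene and ERCC spike-in for 19 embryos; its name refers to FPKM, but the values are whole numbers with library totals that differ, and they were treated as counts. Trimmomatic, Trim Galore, cutadapt, STAR, featureCounts and the mm10 build are named, per the submitters' processing notes; versions and strand setting are not given in the sources used here. Libraries held 7.49 M to 31.5 M gene counts. Genes at 1 FPKM or more (computed from the counts and GENCODE exon lengths) in at least 2 embryos were tested, 18410 of 53379. edgeR 4.0.16 (R 4.3.3, TMM, 7 group means, quasi-likelihood test, Benjamini-Hochberg adjustment at 0.05) gave fold changes and SE. The 4 comparisons that use Gabpb1-cross morulae are given with no p-value for any gene. For the Gabpb1 KO contrast only the number of called genes was taken from the test. On simulated counts for the Alyref KO comparison (18410 genes), the share of changed genes recovered was 8%, 62%, 78% and 92% at a change of 1, 2, 3 and 5 log2 units. DESeq2 1.42.0, limma 3.58.1, other scalings and filters, fits of the compared groups alone, a replicate block and leaving out each embryo were the alternatives. Named genes were the 6 members, called genes of the lists (otherwise the 3 with the highest mean FPKM), tested neighbours of Lypla2 (not reported here), the 5 genes with the highest r with Lypla2, and Gabpb1, Gabpa and Alyref. The members, lists and markers were chosen with earlier results of these data known.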

Additional observations from a re-analysis of the deposited data

How the results depend on the processing

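Of the alternatives run for Lypla2 in the 5 tested comparisons, none took it past the threshold, and its sign changed in 10 of 79. Between blastocysts and morulae of the Alyref cross it was -0.064 with spike-in scaling. Between the crosses' blastocysts, where it was 0.005, it was -0.00456 with library totals, -0.21 with spike-ins, -0.016 with no filter, -0.020 and -0.022 with limma at a pseudocount of 1 and 0.1, -0.022 with the replicate block, and -0.15 to 0.19 leaving out single embryos. The described difference between Gabpb1 KO and non-KO morulae was -5.70 with spike-ins, -3.68 with limma at a pseudocount of 1, -4.95 at 0.1, and -5.40 to -4.90 leaving out single embryos. Against the Alyref non-KO morulae it was -3.01 with limma at a pseudocount of 1. Between blastocysts and non-KO morulae of the Gabpb1 cross Lypla2 differed by -0.18 (SE 0.33), with overlapping values. With spike-ins that difference was -1.14, where the median gene moved by -0.88.

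For the other members, sign changes were limited to differences that did not pass the test. Lypla1 between Alyref-cross and WT blastocysts, at -0.0075, was 0.00018 with RLE, 0.0074 with library totals, 0.15 with spike-ins, 0.021 with no filter, 0.0083 with filterByExpr, 0.00014 with DESeq2, 0.059 and 0.062 with limma at 1 and 0.1, 0.082 with the replicate block, and -0.25 to 0.27 leaving out single embryos. Lyplal1 between the crosses' blastocysts was -0.037 and -0.65 with limma at 1 and 0.1. Ppt1 between Alyref KO and non-KO morulae was 0.057 and 0.10 with limma at 1 and 0.1, and between Gabpb1-cross and WT blastocysts 0.020 with spike-ins. Ppt2 between Alyref KO and non-KO morulae was 0.093 with spike-ins. Leaving out single embryos gave -0.018 to 0.50 for Lypla1 between Gabpb1-cross and WT blastocysts. For Lyplal1 it gave -0.17 to 1.82 in the Alyref KO comparison, -0.31 to 1.83 between blastocysts and morulae of the Alyref cross, -1.07 to 0.090 between Gabpb1-cross and WT blastocysts and -0.46 to 0.85 between the crosses' blastocysts. For Ppt1 it gave -0.53 to 0.64, -0.49 to 0.052 and -0.26 to 0.28 in the Alyref KO, Gabpb1-cross against WT and between-cross blastocyst comparisons. For Ppt2 it gave -1.49 to 0.57 in the Alyref KO and -0.61 to 1.11 in the between-cross blastocyst comparison. The causes were not tested.

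Counts of called genes moved widely. For Alyref KO the 42 became 0 with spike-ins or the compared groups alone and 502 with DESeq2 (0 to 128 leaving out single embryos). For the blastocysts and morulae of the Alyref cross the 2402 became 24 with the compared groups alone and 3762 with DESeq2 (346 to 4560). For the Gabpb1 KO contrast the 303 became 0 and 1283 in the same alternatives (48 to 966). The replicate numbers were not used to pair the embryos in the main fit. Same-numbered embryos had deviations from their group means correlated at -0.19 to 0.25. Different-numbered embryos were not compared, so these values cannot show whether the numbers pair embryos. With a replicate block the calls were 8, 2013 and 266. Lone embryos left in a group were assumed to vary like the other groups. Lyplal1 had 0 to 170 counts per embryo, and how far depth sets its errors was not tested.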
